A study of Homo sapiens with 2 samples.

Results

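Chromosomes 4 and 18 are 2 of the gene-poorest human autosomes, and their contacts with a reporter locus were mapped by 4C-seq. The probes, windows of 50 kb that tile the genome (build hg18), were taken by chromosome alone. They number 5349 of 61607, of which 3826 lie on chromosome 4 and 1523 on chromosome 18. They were set against the 44365 probes of the 17 other autosomes, with chromosomes 6, 12 and 17 left out. The cells were U2OS, an osteosarcoma line, carrying the transgenes DRGFP, TRE-I-SceI and Tet-On (Clontech), with no treatment recorded. DRGFP is a reporter of double-strand break repair with an I-SceI cutting site, TRE-I-SceI a tetracycline-responsive gene for that enzyme, and Tet-On the regulator that drives it. Both libraries came from the same kind of cells in 2 independent experiments and form a single group with no control. U2OS carries many gained, lost and rearranged chromosomes, and the copy number of chromosomes 4 and 18 was not measured.

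4C joins pieces of fixed chromatin that lie near each other, and an outward-facing PCR on 1 bait fragment then reads out its partners. Fragments on the same chromosome are joined most often, because each chromosome keeps to its own territory in the nucleus, and joins to other chromosomes are rare and scattered. Gene-poor chromosomes, with chromosome 18 as the textbook case, tend to lie towards the nuclear edge in many human cells, whereas the gene-dense chromosome 19 tends to lie in the interior. The bait was a HindIII-Csp6I fragment of DRGFP near the I-SceI site, and the comparison asks how often it was joined to chromosomes 4 and 18.

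Values are RPM, reads scaled to a common library total, so that 1 read is worth 1.06 RPM in replicate 1 and 2.20 RPM in replicate 2. A probe was counted as detected when it had at least 1 read. Replicate 1 held 944456 reads and replicate 2 held 454091. The probes of chromosomes 4 and 18 together held 19052 reads in replicate 1 and 10328 in replicate 2. Since PCR copies are not independent molecules, intervals cover counting error only, and neighbouring probes are not independent either. With 2 experiments no test between regions can give a two-sided exact permutation p below 0.5, so differences between regions are given for each experiment, without a p.

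The libraries also share a pattern of single reads. On chromosomes 4 and 18, 46 probes had at least 100 reads in replicate 1, and 13 of them had exactly 1 read in replicate 2, a share of 28.3% against 2.58% over all probes of these chromosomes. Of the 29 probes with at least 100 reads in replicate 2, 5 had exactly 1 read in replicate 1. On the other autosomes 14.4% of such probes of replicate 1 and 17.9% of those of replicate 2 stood opposite a single read. Detection by chromosome, by arm and in both libraries was also computed without single reads opposite at least 100 reads. Values by position, by gene and by list include single reads, and the part of these reads in them was not tested.

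Gene content was low on both chromosomes by the deposited gene names. Gene names numbered 4.34 per Mb on chromosome 4 and 4.24 per Mb on chromosome 18, against 6.06 per Mb on the other autosomes. Chromosome 18 was the lowest of the 19 autosomes in this measure and chromosome 4 the second lowest, while chromosome 19 was the highest with 12.2 per Mb. By gene overlap, the share of probes was 48.7% for chromosome 4 and 51.0% for chromosome 18, against 59.2% for the other autosomes. Chromosomes 13 and 21 were lower than both by gene overlap.

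Reads reached chromosomes 4 and 18 about as often as other autosomes. On chromosome 4, 275 probes (7.19%) had reads in replicate 1 and 299 (7.81%) in replicate 2, against the background of 6.49% and 6.90% on the other autosomes. On chromosome 18 the counts were 98 (6.43%) and 120 (7.88%). The difference from the other autosomes was 0.81 ± 0.15 percentage points for chromosome 4 and 0.46 ± 0.73 for chromosome 18 (SD, n = 2). Chromosome 4 was thus above the pooled autosomes in both experiments, and chromosome 18 in replicate 2 alone.

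The order of the 19 autosomes shows how small these differences are. Chromosome 4 took the fifth place by share of detected probes in both replicates, and chromosome 18 place 9 in replicate 1 and place 4 in replicate 2. The other autosomes ranged between 3.83% and 8.09% in replicate 1 and between 3.73% and 8.92% in replicate 2. Chromosomes 3 and 5, close to chromosome 4 in size, had reads at 7.30% and 7.82% of probes in replicate 1 and at 7.70% and 7.71% in replicate 2. The 95% Clopper-Pearson intervals of chromosome 4, 6.39% to 8.05% and 6.98% to 8.71%, cover all 4 of these values. Chromosome 13, the lowest by gene overlap, had reads at 4.60% and 4.69% of probes, and chromosome 19 at 5.64% and 4.46%, both below chromosomes 4 and 18 in each replicate.

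**Figure D1:**
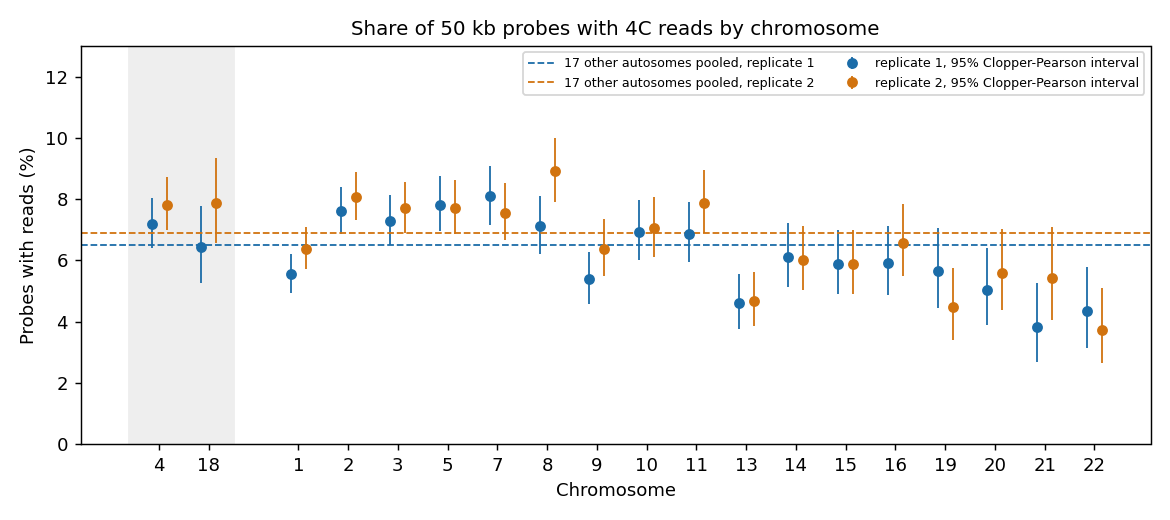
Share of 50 kb probes with at least 1 read (y axis, percent) on each of 19 autosomes (x axis), with chromosomes 4 and 18 shaded at the left; points are replicates, bars 95% Clopper-Pearson intervals and dashed lines the pooled share of the 17 other autosomes. Chromosome 4 lies above both dashed lines at 7.19% and 7.81%. Chromosome 18, at 6.43% and 7.88%, lies above the line of its replicate in replicate 2 alone. Both chromosomes are within the range of the others.

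Chromosomes differ in how much of them carries no gene name at all. Probes in 1 Mb windows without any gene name made up 5.75% of chromosome 4 and 3.94% of chromosome 18, against 8.66% of the other autosomes. They made up 18.4% of chromosome 13 and 12.5% of chromosome 19, and the detected shares of these 2 given above include them. Without those windows chromosome 4 had reads at 7.38% and 7.88% of probes and the other autosomes at 6.94% and 7.40%, a difference of 0.46 ± 0.03 percentage points (n = 2). For chromosome 18 it was 0.05 ± 0.88, with -0.58 in replicate 1. Without the acrocentric chromosomes 13, 14, 15, 21 and 22 in the comparison it was 0.47 ± 0.10 for chromosome 4 and 0.12 ± 0.68 for chromosome 18. Across the 19 autosomes, Pearson's r between gene overlap and the mean detected share was -0.04, and across the 14 without acrocentrics it was -0.63 (Spearman's rho -0.07 and -0.58). These are descriptions of chromosomes that share 2 libraries and differ in length and gaps.

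The amount of signal did not separate these chromosomes from the rest. Chromosome 4 averaged 3.21 RPM per probe in replicate 1 and 4.35 in replicate 2, against 3.95 and 3.85 on the other autosomes. Chromosome 18 averaged 5.17 and 4.00. The difference was -0.11 ± 0.88 RPM for chromosome 4 and 0.69 ± 0.76 for chromosome 18 (n = 2), in both cases smaller than its SD. Few probes decide these means. In replicate 1 the 15 probes of chromosome 18 with at least 100 reads held 83.3% of its reads, and its highest probe alone 21.1%. Where a probe had reads, the median was 3.18 and 8.81 RPM on chromosome 4 and 4.24 and 8.81 RPM on chromosome 18, against 2.12 and 8.81 RPM on the other autosomes. These medians amount to a few reads, and 42.5% and 34.8% of the detected probes of chromosome 4 had a single read.

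The arms of chromosome 18 differed. Its short arm, split from the long arm at 16 Mb inside the centromere, had reads at 35 of 320 probes (10.9%) in replicate 1 and at 40 (12.5%) in replicate 2. Its long arm had reads at 63 of 1203 probes (5.24%) and at 80 (6.65%). The short arm lay above the long arm by 5.70 and 5.85 percentage points in the 2 replicates, a mean of 5.78 ± 0.11 (n = 2). It also lay above the other autosomes by 5.03 ± 0.81. Among 28 arms of 14 chromosomes it came first in both replicates, and the long arm placed 22 in replicate 1 and 20 in replicate 2. Attention fell on the short arm after its values were seen.

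**Figure D2:**
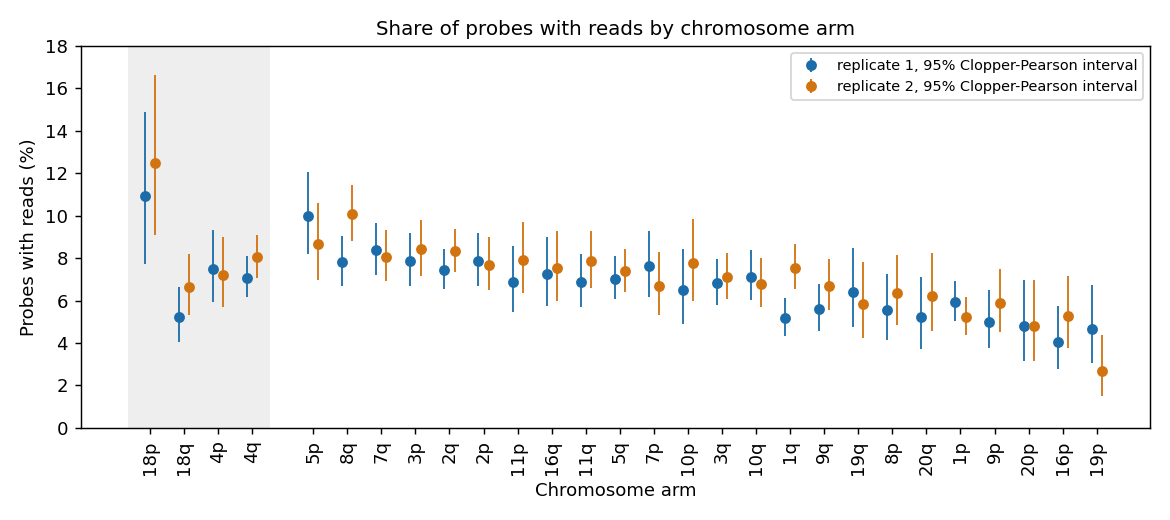
Share of probes with at least 1 read (y axis, percent) in each of 28 chromosome arms (x axis), with the arms of chromosomes 18 and 4 shaded at the left and the others in falling order of their mean; points are replicates and bars 95% Clopper-Pearson intervals. The short arm of chromosome 18 reaches 10.9% and 12.5%, above its long arm at 5.24% and 6.65% and above each other arm.

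The next arms were close enough that counting error overlaps. The short arm of chromosome 5 had reads at 10.0% and 8.65% of probes and the long arm of chromosome 8 at 7.80% and 10.1%. The interval of the short arm of chromosome 18 ran from 7.74% to 14.9% in replicate 1 and from 9.08% to 16.6% in replicate 2, so that it holds the value of the short arm of chromosome 5 in replicate 1 and that of the long arm of chromosome 8 in replicate 2. The interval of the long arm of chromosome 18, 4.05% to 6.65% and 5.31% to 8.21%, did not reach that of its short arm in either replicate.

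The lead of the short arm of chromosome 18 held at both higher read minimums in replicate 1, and at the lower of them in replicate 2. It did not hold in mean signal. Counting probes with at least 2 reads, it had 8.44% and 9.06%, against 3.80% and 4.71% on the other autosomes. With at least 10 reads it had 4.38% and 3.13%, against 2.29% and 2.32%, and in replicate 2 the long arm of chromosome 8 was highest, with 3.46%. Mean signal on the short arm was 7.95 RPM per probe in replicate 1 and 3.19 in replicate 2, second and twentieth among the 28 arms. A single probe in replicate 2 had at least 100 reads on this arm, against 6 in replicate 1.

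Detection along chromosome 18 was highest at its start. In the first 2.5 Mb, 10 of 50 probes had reads in each replicate. From 2.5 to 5 Mb there were 7 and 6, from 5 to 7.5 Mb 5 and 7, and from 7.5 to 10 Mb 6 in each. From 10 to 12.5 Mb there were 3 and 6, and from 12.5 to 15 Mb 3 and 5. In the last 1 Mb before the split, 1 and 0 of 20 probes had reads. The first 10 Mb had reads at 14% and 14.5% of probes, whereas the other full 10 Mb bins of the chromosome ranged between 4.0% and 6.5% in replicate 1 and between 4.5% and 10% in replicate 2. Of 213 full bins of the other autosomes, 1 had at least 14% in both replicates. Without the first 2.5 Mb the short arm still lay above the long arm, by 4.24 ± 0.31 percentage points.

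Within 5 Mb of either end of chromosome 18, 10.4% of probes had reads in each replicate, against 4.57% and 6.51% beyond 20 Mb. Only the start of the chromosome was high, with reads at 17% and 16% of probes in its first 5 Mb. On chromosome 4 the shares were 6.47% and 8.46% within 5 Mb and 7.34% and 8.43% beyond 20 Mb. On the other autosomes they were 4.59% and 4.92% within 5 Mb and 6.84% and 7.31% beyond 20 Mb, with acrocentric chromosomes included. Without acrocentrics, the first 15 Mb of the other autosomes had 6.47% and 6.14% and the last 15 Mb 6.17% and 6.95%, against 6.79% and 7.27% over their whole length. The first 15 Mb of chromosome 18 had reads at 11.3% and 13.3% of probes and the last 15 Mb at 4.98% and 5.65%. Among the first 15 Mb of 14 chromosomes, that of chromosome 18 was highest, and chromosome 3 followed with 11% in each replicate. The other starts ranged down to 3.67% and 2.67%, and that of chromosome 4 had 6.0% and 3.0%, with 8.97% and 8.31% in its last 15 Mb.

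The arms of chromosome 4 did not differ in this way. The short arm, up to 50 Mb, had reads at 75 of 1000 probes (7.50%) in replicate 1 and 72 (7.20%) in replicate 2, and the long arm at 200 of 2826 (7.08%) and 227 (8.03%). The difference of short minus long arm changed sign between the replicates, at 0.42 and -0.83 percentage points. Within the short arm, detection was lower towards the chromosome end. The bins from 0 to 10 Mb and from 10 to 20 Mb had 5.0% and 5.5% in replicate 1 and 3.5% each in replicate 2, while the bin from 40 to 50 Mb had 13% and 11.5%. The bin from 0 to 10 Mb is gene-dense for this chromosome, with a gene at 84.0% of its probes. With 10 Mb on either side of the centromere left out, short minus long arm was -1.19 in replicate 1 and -2.06 in replicate 2.

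On the long arm of chromosome 4 the bin from 70 to 80 Mb was highest by the mean of the replicates, with 10.5% and 12.5%. In replicate 1 the bin from 120 to 130 Mb was higher, with 11%, and it had 5.0% in replicate 2. Pearson's r between the replicates over the 19 full 10 Mb bins of chromosome 4 was 0.41, against 0.64 over the 213 bins of the other autosomes. Over the 7 bins of chromosome 18 it was 0.86. These coefficients describe bins of 2 libraries and have no p.

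**Figure D3:**
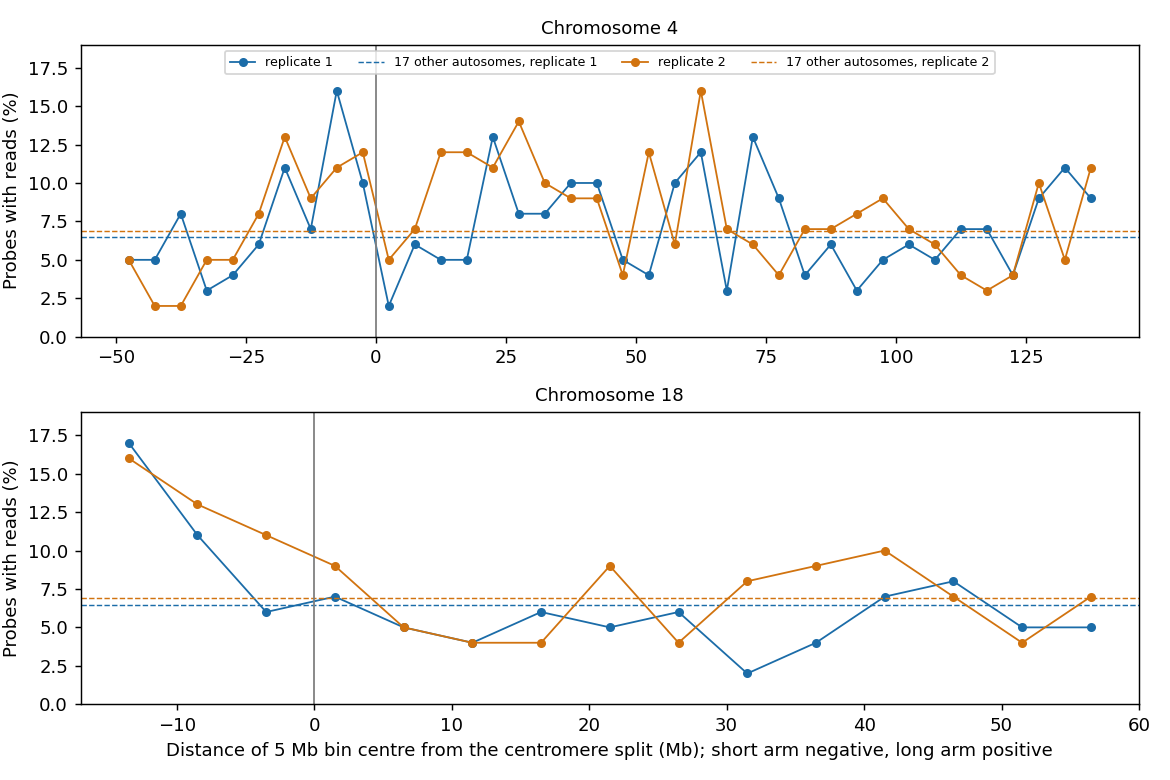
Share of probes with reads (y axis, percent) in 5 Mb bins along chromosome 4 (upper panel) and chromosome 18 (lower panel), by distance from the centromere split in Mb, with the short arm at negative values; dashed lines give the pooled share of the 17 other autosomes, 6.49% and 6.90%. Both replicates are highest at the left end of chromosome 18, and on chromosome 4 they rise and fall without such an end.

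Some long stretches had no reads in either library. The longest on chromosome 4 ran from 48450001 to 52650000 and spans the centromere. OCIAD1, OCIAD2 and DCUN1D4 lie within it, while FRYL and SPATA18 reach into it from either side and have reads outside it. The longest on chromosome 18, ran from 25000001 to 28300000, and 27 of its 66 probes overlap a gene. It holds all 7 desmosomal cadherin genes, DSC1 to DSC3 and DSG1 to DSG4, which encode the adhesion proteins of desmosomes, and TTR, the gene of the thyroid hormone carrier transthyretin. A stretch of 43 probes on chromosome 4, from 152600001 to 154750000, holds FBXW7, a ubiquitin ligase subunit gene, MND1, a meiotic recombination gene, and TRIM2. Another of 29 probes on chromosome 18, from 41400001 to 42850000, has a gene at 27 probes, among them the urea transporter genes SLC14A1 and SLC14A2.

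On these chromosomes the difference by gene overlap varied between the replicates. On chromosome 4, 8.32% and 7.94% of the probes that overlap a gene had reads, against 6.11% and 7.69% of the others. On chromosome 18 the shares were 6.70% and 7.73% against 6.16% and 8.03%. Overlapping minus other probes came to 1.23 ± 1.38 percentage points on chromosome 4 and 0.12 ± 0.60 on chromosome 18, against 1.16 ± 0.11 on the other autosomes (n = 2). On chromosomes 4 and 18 the difference is thus smaller than its SD, and on chromosome 18 it changes sign between replicates. Once 1 Mb windows without gene names were left out, the other autosomes came to 0.01 ± 0.23 and chromosome 4 to 1.05 ± 1.28. On the short arm of chromosome 18, 11.2% and 13.4% of overlapping probes and 10.5% and 11.3% of the others had reads, so both kinds were high there.

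**Figure D4:**
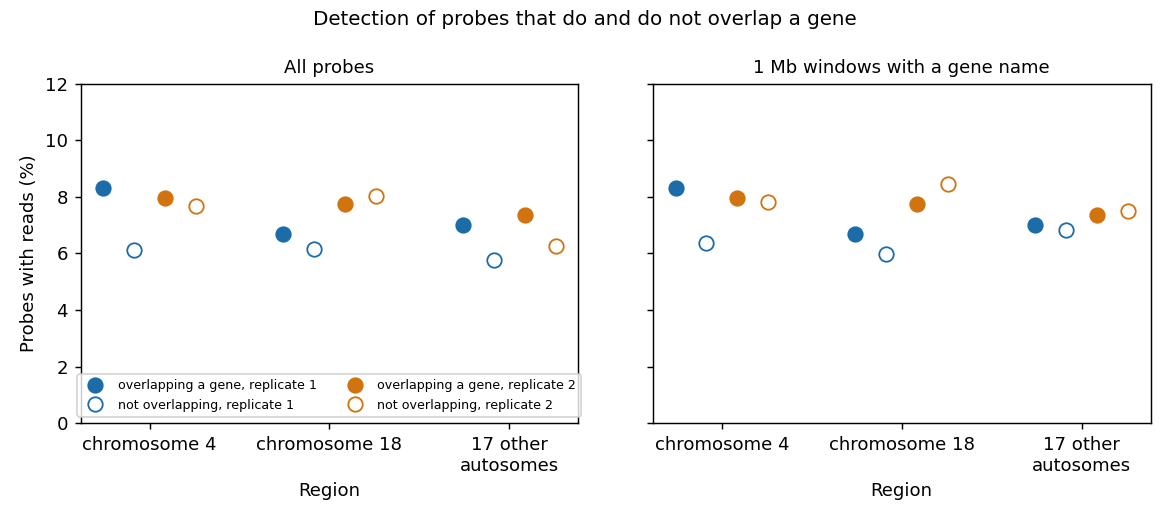
Share of probes with reads (y axis, percent) among probes that overlap a gene (filled) and those that do not (open), on chromosome 4, chromosome 18 and the 17 other autosomes, in each replicate; the right panel leaves out 1 Mb windows without a gene name. The points lie between 5.75% and 8.44%, and filled points are not above open ones in each pair.

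Of the 5349 probes, 4628 had no read in either experiment, and most of the 721 with reads had them in a single one. Reads in both were found at 47 probes of chromosome 4 (1.23%) and 24 of chromosome 18 (1.58%), against the background of 1.28% on the other autosomes. The product of the shares of the 2 replicates would give 21.5 on chromosome 4 and 7.72 on chromosome 18, so the shared probes came to 2.19 and 3.11 times that number, against 2.86 times on the other autosomes. A single read stood in at least 1 library at 48 of the 71 shared probes, and 6 had at least 10 reads in both. Without single reads that stood opposite at least 100 reads, 36 shared probes were left on chromosome 4 (1.74 times the product) and 17 on chromosome 18 (2.35 times), against 2.48 times on the other autosomes. The short arm of chromosome 18 held 11 shared probes of 320 (3.44%) and the long arm 13 of 1203 (1.08%), with products of 4.38 and 4.19. Of the 71 shared probes, 45.1% overlap a gene, near the 49.3% of all probes of these chromosomes, and on the other autosomes 61.7% do, near the 59.2% of all probes there.

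Read numbers at a probe seldom matched between the libraries. An exact two-sided binomial test of the recovered reads, with Benjamini-Hochberg adjustment over 4704 probes of all chromosomes with at least 5 reads, called 325 of 347 probes of chromosomes 4 and 18 at 0.05. The background was 89.9% of all probes and 91.2% of those on the other autosomes. Of the 347 probes, 139 were called higher in replicate 1, against a background of 38.0% of all probes tested and 37.7% on the other autosomes. Called higher in replicate 2 were 186 of the 347, against 51.9% and 53.5%. Of all 325 calls, 276 had no read in the other library, against 2052 of 2406 on the other autosomes and 3139 of 4229 on all chromosomes. By this binomial test, 5 reads in replicate 2 alone were called (adjusted p = 0.0043), whereas 8 reads in replicate 1 alone were not (adjusted p = 0.066). At low read numbers the 2 directions were thus not called alike. With at least 20 reads in all, the balance turned to 120 higher in replicate 1 and 94 in replicate 2, and on the other autosomes to 811 and 675. The test compares 2 libraries, and PCR copies make its p-values too small. Of the 22 probes not called, 9 had reads in both libraries.

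**Figure D5:**
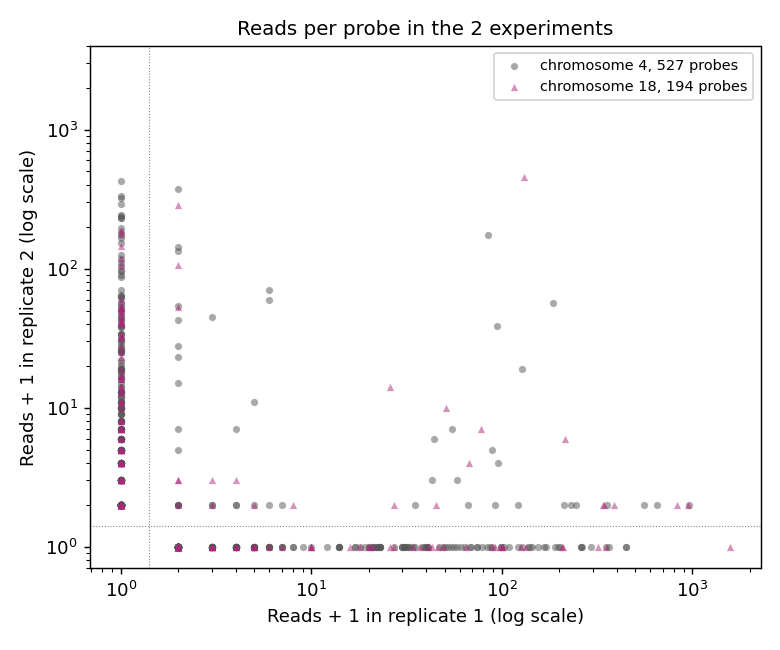
Reads + 1 per probe in replicate 1 (x axis, log scale) and replicate 2 (y axis, log scale) for the 527 probes of chromosome 4 (circles) and the 194 of chromosome 18 (triangles) with reads in either library; points left of the vertical dotted line have no read in replicate 1, and those below the horizontal one none in replicate 2. Most points lie on these edges, with a row of single reads beside them, and the 71 shared probes lie between.

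The probes with the strongest support on chromosome 4 lay mostly outside genes. The highest by its lower replicate, from 30050001 to 30100000 on the short arm, has no gene and had 195 RPM in replicate 1 and 123 in replicate 2 (184 and 56 reads). The second, from 183100001 to 183150000, also without a gene, had 87.9 and 381 RPM. The third, from 43400001 to 43450000, had 98.5 and 83.7 RPM, and its libraries did not differ by the binomial test (exact test, adjusted p = 0.465). These 3 probes are high in both experiments. By the same exact test the first differed between the experiments with an adjusted p of 0.00297 and the second with 8.77e-30.

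The genes that followed on chromosome 4 had reads in both experiments at unequal levels. ANK2, which encodes the membrane scaffold ankyrin-B, had 133 and 39.6 RPM at 114350001 to 114400000. NEIL3, which encodes a glycosylase that removes damaged bases from DNA, had 93.2 and 8.81 RPM at 178500001 to 178550000. Both were higher in replicate 1. A probe without a gene from 189600001 to 189650000 had 99.5 and 6.61 RPM, and a probe from 123850001 to 123900000 with a clone-based name had 57.2 and 13.2 RPM.

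The highest single values on chromosome 4 were seen in 1 experiment. ANP32C, now ANP32CP, a copy of a nuclear phosphoprotein gene, had 1009 RPM in replicate 1 and 2.20, a single read, in replicate 2 (165300001 to 165350000). APBB2, the gene of an adaptor of the amyloid precursor protein, had 0 in replicate 1 and 936 RPM in replicate 2 (40550001 to 40600000). PCDH7, a protocadherin gene, had 1.06, a single read, and 826 RPM (30450001 to 30500000). The probe from 151100001 to 151150000, without a gene, had 686 and 2.20 RPM. Each of these 4 had no read or 1 read in the other library.

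GATA6 stood out on chromosome 18. The probe that overlaps this gene, a transcription factor gene of endoderm and heart development, had 137 RPM in replicate 1 and 1006 in replicate 2 (129 and 457 reads, 18000001 to 18050000 on the long arm). It was the highest probe of chromosome 18 by its lower replicate, the highest of both chromosomes in replicate 2, and their sole probe with at least 100 reads in each library. The second, from 38400001 to 38450000 without a gene, had 26.5 and 28.6 RPM, with an adjusted p of 0.869 by the binomial test. KIAA0427, now CTIF, a gene of translation initiation at the cap-binding complex, had 3.18 and 4.40 RPM (44350001 to 44400000). At GATA6 the libraries differed, with the higher value in replicate 2, whereas these 2 probes were not called as different.

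Among the 8 highest probes of chromosome 18 by the lower replicate, 3 lay on the short arm, and none of these overlaps a gene. They had 52.9 and 19.8 RPM (10300001 to 10350000), 81.5 and 13.2 RPM (10000001 to 10050000), and 226 and 11 RPM (2300001 to 2350000). A probe without a gene on the long arm, from 62700001 to 62750000, had 69.9 and 6.61 RPM, and a probe with a clone-based name from 38100001 to 38150000 had 27.5 and 2.20 RPM. All 5 were higher in replicate 1. The highest value of replicate 1 on the chromosome, 1667 RPM at TSHZ1, a zinc finger homeobox gene (71100001 to 71150000), had no read in replicate 2. C18orf17, now TTC39C, had 1002 RPM and a single read in replicate 2 (19800001 to 19850000), and a probe without a gene from 34700001 to 34750000 had a single read in replicate 1 and 634 RPM in replicate 2.

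Genes of the short arm of chromosome 18 were reached more often than those of its long arm. Of 77 gene names on the short arm, 16 (20.8%) had reads in replicate 1 and 15 (19.5%) in replicate 2, against 30 (12.2%) and 34 (13.8%) of 246 on the long arm. Those with reads in both replicates, named after their values were seen, were PTPRM, L3MBTL4, MYOM1, EPB41L3 and SPIRE1. PTPRM, the gene of a receptor tyrosine phosphatase of cell contacts, spans 17 probes (7550001 to 8400000), of which 3 and 6 had reads. L3MBTL4, an MBT domain gene, spans 11 probes (5900001 to 6450000), of which 2 had reads in each replicate. Their highest probes in replicates 1 and 2 had 363 and 15.4 RPM for PTPRM and 409 and 6.61 RPM for L3MBTL4. In both genes these are different probes, and the highest of replicate 1 had a single read in replicate 2. EPB41L3 and SPIRE1 had reads in both replicates only at different probes. MYOM1 encodes a protein of the muscle sarcomere, EPB41L3 a membrane skeleton protein and SPIRE1 an actin nucleator.

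Long genes of the long arm of chromosome 18 were reached less. DCC, the gene of a netrin receptor in axon guidance and the longest of the chromosome with 25 probes (48100001 to 49350000), had no read in replicate 1 and 1 probe with reads in replicate 2. FHOD3, a formin gene, and C18orf34, now CCDC178, had none in either, at 10 and 11 probes, and DOK6 had 0 and 1 of 10. On chromosome 4, KCNIP4, a potassium channel subunit gene, had 1 of 24 probes with reads in each replicate, FSTL5 1 and 2 of 17, and LRBA, a gene of vesicle trafficking in immune cells, 2 of 16 in each.

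Over all gene names of chromosomes 4 and 18, 15.9% had reads in replicate 1 and 14.99% in replicate 2, against 12.4% and 12.6% on the other autosomes. The 1154 names of chromosomes 4 and 18 cover 2664 probes, and the 13447 of the other autosomes 26460, so each name on chromosomes 4 and 18 spans more probes. Among genes of a single probe the shares were 7.57% and 6.09% against 6.69% and 6.64%, and among genes of 10 or more probes 70.4% and 51.9% against 63.1% and 58.2%. In these 2 size classes the order turned between replicates, and in the classes between them chromosomes 4 and 18 were higher in both. Per probe, genes on chromosomes 4 and 18 had reads at 7.88% and 7.92%, which serves as background for the 11 lists that follow. Values of a listed gene are those of its highest probe in each replicate, which can be different probes. No probe of CXCL13, GABRG1, KCNIP4 or RBBP8 had reads in both replicates.

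Growth factors and receptor kinases had reads at 5 and 6 of 51 probes (9.80% and 11.8%), in 4 of 16 genes in each replicate and in none in both. EPHA5, an ephrin receptor gene, had 310 RPM and TEC, a kinase gene of lymphocytes, 163 RPM in replicate 1, both with 0 in replicate 2. PDGFRA, KIT and VEGFC had no reads. Of the CXC chemokine genes, 1 and 3 of the 7 found had reads, at 2 and 3 of 9 probes. CXCL13, a B-cell attractant, had 3.18 and 8.81 RPM, and CXCL10, induced by interferon, had 0 and 366 RPM. PF4 had none. Neurotransmitter receptors had reads at 4 and 5 of 65 probes (6.15% and 7.69%), among them GABRG1, a GABA receptor subunit gene, with 1.06 and 11 RPM. NPY2R had none.

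Axon guidance and neuronal adhesion genes had reads at 6 and 10 of 133 probes (4.51% and 7.52%). By the lower replicate KCNIP4 came first with 13.8 and 6.61 RPM at different probes, and CDH7, a cadherin gene, second with 46.6 and 2.20 RPM. PCDH7, also in this list, had the higher mean through replicate 2, and the netrin receptor gene UNC5C had none. Alcohol dehydrogenases and glucuronosyltransferases had reads at 0 and 3 of 20 probes. UGT2B11 had 139 RPM and UGT2A1 6.61 RPM, in replicate 2 alone, and UGT2B4 had none. Some of these genes have close copies, and whether reads were split among them was not tested. Liver plasma protein genes had reads at 1 and 0 of 10 probes, with 3.18 RPM at ALB, the serum albumin gene, in replicate 1, and none at AFM and TTR.

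Bone and tooth matrix genes, of interest in an osteosarcoma line, had reads at 1 and 0 of 10 probes. AMTN, an enamel protein gene, had 104 RPM in replicate 1, and SPP1, the osteopontin gene, and AMBN had none. The desmosomal cadherins had none at 8 probes. SERPINB inhibitors, a cluster of protease inhibitor genes, had reads at 2 and 0 of 11 probes, at SERPINB2 with 106 RPM and SERPINB5 with 1.06 RPM, and none at SERPINB8. SMAD and other transcription regulators had reads at 7 and 2 of 53 probes (13.2% and 3.77%). By the lower replicate GATA6 came first and SMAD7, the gene of an inhibitor of TGF-beta signalling, second with 1.06 and 233 RPM. TSHZ1, also in this list, had the highest mean through replicate 1, and SMAD4, the shared partner of that pathway, had none.

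Genes of DNA repair and the cell cycle had reads at 4 and 5 of 28 probes (14.3% and 17.9%), in 4 of 13 genes in each replicate and in 2 in both. These were NEIL3 and RBBP8, the gene of CtIP, which starts the resection of broken DNA ends. RBBP8 had 1.06 and 4.40 RPM, that is 1 and 2 reads, at different ones of its 3 probes (18750001 to 18900000). TYMS, the thymidylate synthase gene on the short arm of chromosome 18, had none. The median over genes of the highest probe, averaged over replicates, was 0.26 RPM for the growth factors and 0 RPM for the other 10 lists. The lists hold between 8 and 133 probes, so the shares of the shorter ones rest on a few probes.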

How the data were processed

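4C-seq libraries of 2 independent experiments were analysed. Formaldehyde-fixed chromatin went through HindIII, ligation, Csp6I and a second ligation before inverse PCR, per the labels' protocols. Coordinates are on hg18 (submitters' processing notes). Aligner, filters and gene annotation: not given in the sources used here. Signal values in the deposited table are whole multiples of 1.06 and 2.20 in replicates 1 and 2, that is RPM, and 100% gave whole reads within 0.1 read. A total row, a mean row and the mitochondrial probe were left out. No correction was made for copy number or for HindIII sites per probe.

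Shares of probes with reads carry 95% Clopper-Pearson intervals. Arms were split at whole Mb positions inside the centromere, where 62 probes on chromosome 4 and 28 on chromosome 18 lie between the nearest gene names without a read. The libraries were compared by exact binomial tests (scipy 1.17.1), a procedure tested on simulated data. Named by rule were the 8 probes highest by the lower replicate and the 2 highest of each replicate, per chromosome, with the 2 highest members and the lowest of each list. The longest genes and stretches without reads were added. Some items that these rules name are not reported here. Regions and lists were chosen with earlier results of these data known. Gene names numbered 1154, of which 671 are current symbols and 119 are a synonym of 1 gene in RefSeq (GRCh38.p14, names only), and clone-based or date-like names are not printed. Alternatives covered read minimums, windows without genes, weighting, the reference chromosomes, pseudocounts and each experiment alone.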

Additional observations from a re-analysis of the deposited data

How the results depend on the processing

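With 2 experiments and 454091 reads in the shallower one, differences of under 1 percentage point between chromosomes rest on a few probes. No paired analysis was possible because there is 1 group of samples, and differences between regions were taken within each experiment. Chromosome 4 stayed above the other autosomes in all alternatives run, by 0.36 percentage points with at least 2 reads, 0.31 with at least 10 reads, 0.46 without windows lacking gene names, 1.21 with chromosomes weighted equally and 0.47 without acrocentrics, and by 0.70 to 0.92 in single replicates. For both chromosomes together it was 0.30 with at least 10 reads, 0.34 without windows lacking gene names, 1.03 weighted equally and 0.37 without acrocentrics, and 0.49 to 0.93 in single replicates. Without single reads opposite high probes, chromosome 4 came to 0.77, chromosome 18 to 0.34 and both together to 0.64. Chromosome 18 was 0.67 with at least 2 reads, ran between -0.0524 and 0.980 in single replicates, and came to -0.75 without its short arm. The mean signal of chromosome 4 turned to 0.0779 RPM above the others without the highest probe of each chromosome, to 0.0273 on log2(RPM + 1) and 0.0514 on log2(RPM + 0.1), and ran between -0.74 and 0.51 in single replicates. Short minus long arm of chromosome 4 was -1.62 with 10 Mb around the centromere left out and 0.52 with at least 10 reads, and -0.83 to 0.42 in single replicates. Short minus long arm of chromosome 18 was 4.84 with at least 2 reads, 1.46 with at least 10 reads and 5.70 to 5.85 in single replicates. It was 5.47 without single reads opposite high probes and 4.24 without the first 2.5 Mb. The short arm of chromosome 18 minus the other autosomes was 1.44 with at least 10 reads and 4.45 to 5.60 in single replicates. It was 4.66 without single reads opposite high probes and 3.49 without the first 2.5 Mb. With 10 Mb on either side of the centromere left out, short minus long arm was 10.4 and short arm minus other autosomes 9.37. That setting removes 10 of the 16 Mb of the short arm and keeps its start, where detection was highest. These values therefore do not describe the whole arm. The gene overlap difference on chromosome 18 ran between -0.30 and 0.54 in single replicates, and with at least 2 reads it was 1.16 on chromosome 4 and 0.60 on chromosome 18. With at least 2 reads in each, 15 shared probes were left on chromosome 4 and 8 on chromosome 18, with products of 8.05 and 3.61. On the other autosomes 207 were left, with a product of 79.3. With at least 20 reads in all, fewer probes were tested. As differing between libraries, 154 of 155 were called on chromosome 4 and 60 of 61 on chromosome 18, against 98.5% on the other autosomes. The alternatives on single reads, on at least 10 reads by arm, on the first 2.5 Mb and on chromosome 18 without its short arm were chosen after seeing the data. Apart from the fewer probes tested, the causes were not tested.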
